A study of Mus musculus with 10 samples.

Results

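Matrix metalloproteinases (MMPs) are zinc-dependent enzymes that cut collagens, laminins, elastin and other proteins of the extracellular matrix, and they also trim cell-surface proteins and chemokines. Most are made as inactive precursors, and tissue inhibitors of metalloproteinases (TIMPs) bind and block the active enzymes, so that activity depends on enzyme, activator and inhibitor together. In inflamed nervous tissue, MMPs of infiltrating leukocytes are known for opening the basement membranes around blood vessels. The 10 genes described here are 7 MMP genes (*Mmp8*, *Mmp9*, *Mmp12*, *Mmp13*, *Mmp14*, *Mmp19* and *Mmp25*), the inhibitor genes *Timp1* and *Timp2*, and *Adam8*, which encodes a membrane-anchored metalloproteinase of a related family. They were taken by name from a count table of 55487 genes, and each name matched 1 row.

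RNA was sequenced from myeloid cells of the spinal cord of adult male C57BL/6 mice that all carried the Arg1tm1Lky allele, an *Arg1*-eYFP reporter that marks *Arg1* expression by the fluorescent protein YFP. All had experimental autoimmune encephalomyelitis (EAE), a model of multiple sclerosis induced here with a myelin peptide in complete Freund's adjuvant together with pertussis toxin, and were taken at peak disease. From each of 5 animals (m2, m6, m234, m235, m236), live CD45+CX3CR1+ cells without CD3 and Ly6G were sorted into 200000 YFP+ (ARG1+) and 100000 YFP- (ARG1-) cells, which gave 5 ARG1+ and 5 ARG1- libraries in animal-matched pairs. Both groups therefore carried the reporter allele and had the disease, no healthy or untreated cells were compared, and the gate did not part monocyte-derived cells from resident macrophages of the nervous system. In such bulk libraries, fewer cells of a type and less RNA per cell cannot be told apart.

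Levels are given as CPM, the count of a gene per 1000000 counts of its library after normalisation of the totals. The check of the sort came first. *Arg1*, which encodes arginase 1, averaged 814 ± 174 in the ARG1+ and 18.4 ± 4.96 CPM in the ARG1- libraries (mean ± SD, n = 5 each), and it was higher in ARG1+ cells in 5 of 5 animals. Library totals were 28870482 to 33826355 counts in ARG1+ and 8396863 to 35455643 in ARG1- cells. The shallowest library, ARG1- of m234, stood apart from the next lowest ARG1- total of 28212174. It also had the highest summed level of 10 microglia markers, at 2750 CPM against 779 to 1500 CPM in the other libraries. Values without it are given beside the results that it moves most. *Ly6g* had 14 counts and *Cd3e* 33 counts over all libraries, so that the genes behind both exclusion gates were near 0, while the monocyte and macrophage gene *Lyz2* was at 11379 ± 1825 in the ARG1+ and 7262 ± 985 CPM in the ARG1- libraries (mean ± SD, n = 5 each).

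The genes *Mmp13* (ENSMUSG00000050578, chr9:7272514-7283331), *Mmp12* (ENSMUSG00000049723, chr9:7344381-7369499) and *Mmp8* (ENSMUSG00000005800, chr9:7558456-7568485) are neighbours on mouse chromosome 9 of build GRCm38. They belong to a run of 10 MMP genes that spans 427072 bases. The others are *Adam8* (ENSMUSG00000025473, chr7:139978932-139992562), *Mmp25* (ENSMUSG00000023903, chr17:23628311-23645277), *Mmp14* (ENSMUSG00000000957, chr14:54431612-54445364), *Mmp19* (ENSMUSG00000025355, chr10:128790910-128800824), *Mmp9* (ENSMUSG00000017737, chr2:164940780-164955850), *Timp1* (ENSMUSG00000001131, chrX:20870166-20874735) and *Timp2* (ENSMUSG00000017466, chr11:118301069-118355740). All values are counts over annotated exons. In the annotation, 22.3% of the exon bases of *Mmp19* are also exon of *Tmem198b* and 6.00% of the antisense gene *Gm47093*, both on the opposite strand. The shared part was 2.17% for *Mmp12*, with *Mmp1b*, and 0.992% for *Adam8*, with *Gm16201*. It is not stated in the sources used whether strand entered the counting, so the *Mmp19* value is uncertain to that extent.

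Several MMP promoters are known to carry a site for AP-1, the dimer of FOS and JUN family proteins, next to sites for ETS family factors. RefSeq promoter windows of GRCm38.p6, which hold 250 bases before and 50 bases after a transcript start, were found for 8 members. *Mmp9* and *Mmp19* had none. The windows were searched on both strands for an AP-1 site (TGAGTCA, or TGACTCA on the other strand) and for an ETS-type PEA3 site (AGGAAG, or CTTCCT on the other strand), and on the sense strand for a TATA box (TATAAA). These motifs do not overlap each other in the windows printed here. The 150 bases before the start are printed here for the 4 members whose level was higher in ARG1+ cells in every animal and for *Mmp25*, the member that was lower in every animal, with each matched motif in capitals.

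Mmp13: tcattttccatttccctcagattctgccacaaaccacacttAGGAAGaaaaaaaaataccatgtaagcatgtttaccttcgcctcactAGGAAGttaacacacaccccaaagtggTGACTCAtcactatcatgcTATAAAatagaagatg
Mmp12: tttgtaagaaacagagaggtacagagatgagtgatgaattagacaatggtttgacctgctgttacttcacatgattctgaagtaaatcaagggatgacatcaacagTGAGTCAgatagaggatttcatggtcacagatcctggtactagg
Mmp8: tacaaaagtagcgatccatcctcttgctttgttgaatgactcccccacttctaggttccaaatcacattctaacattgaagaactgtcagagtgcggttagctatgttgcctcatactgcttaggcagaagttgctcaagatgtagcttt
Adam8: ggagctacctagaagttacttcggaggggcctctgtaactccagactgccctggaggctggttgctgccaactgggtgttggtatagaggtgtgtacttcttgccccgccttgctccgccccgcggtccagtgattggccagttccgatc
Mmp25: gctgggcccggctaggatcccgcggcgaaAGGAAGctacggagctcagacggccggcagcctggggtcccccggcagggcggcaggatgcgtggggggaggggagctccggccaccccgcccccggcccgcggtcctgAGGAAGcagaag

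They lie at chr9:7272364-7272513 (+), chr9:7347224-7347373 (+), chr9:7558279-7558428 (+), chr7:139992563-139992712 (-) and chr17:23645270-23645419 (-), in that order. An AP-1 site was present for 2 of the 8 members, where 5.20% of 32851 windows of the same length hold one. It began 35 bases before the start of *Mmp13* and 44 bases before an *Mmp12* start at base 7347374, whose window is printed. The window of the other *Mmp12* start, at base 7344397 and nearer to the annotated start of the gene, held no AP-1 site and is not printed. *Mmp13* also had a TATA box 16 bases before the start. *Mmp12* had one just inside the transcript that starts at base 7347374, where 8.32% of all windows hold one. A PEA3 site occurred for 6 members, but it is common and was in 35.4% of all windows. No AP-1 site was found in these windows for *Mmp8*, *Adam8*, *Mmp25*, *Mmp14*, *Timp1* or *Timp2*, and a match is a description of letters only.

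To ask which members differ between ARG1+ and ARG1- cells, edgeR's quasi-likelihood test was run on the 13740 genes above 1 CPM in at least 3 libraries, with Benjamini-Hochberg adjustment to a false discovery rate (FDR) over all of them. *Mmp25* was the member with a marked difference, with 4.41-fold lower RNA in ARG1+ cells. *Mmp13* and *Adam8* rose by 1.69-fold and 1.67-fold in ARG1+ cells. *Mmp8* and *Mmp12* were 1.79-fold and 1.94-fold higher, and did not pass in this fit, while they passed with the animal as a block and in some other fits given below. *Mmp14*, *Mmp19*, *Timp1* and *Timp2* did not pass the test. *Mmp9* had too few counts to be tested.

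Of the 10 members, 9 were tested. At both limits, an FDR below 0.05 with a log2 fold change beyond 1 in size, 0 were higher and 1 was lower in ARG1+ cells, where 0.560% of all tested genes were higher and 0.888% lower. At the FDR limit alone, 2 were higher and 1 was lower, against 6.82% and 6.15% of all tested genes. At an unadjusted p under 0.05 by edgeR, 4 members were higher and 1 was lower, against 15.0% of all tested genes in each direction. DESeq2 and limma-trend also called 0 members higher at both limits, where they called 0.612% and 0.568% of all genes. At the FDR limit alone DESeq2 called 3 members higher, against 9.29% of all genes, and limma-trend 2, against 6.65%. With the animal as a block, 4 were higher and 1 was lower at the FDR limit alone, against 16.8% and 18.3% of all tested genes. The groups did not overlap for 1 member, *Mmp25*, and this happened for 5.20% of tested genes in that direction and 6.15% in the other. The level was higher in ARG1+ cells in all 5 animals for 4 members and lower in all 5 for 1, against 20.0% and 21.01% of tested genes. The median log2 fold change was 0.07 over the 9 tested members and -0.0022 over all tested genes. In the plot of levels by library, these patterns are seen as lines that link the libraries of an animal.

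**Figure D1:**
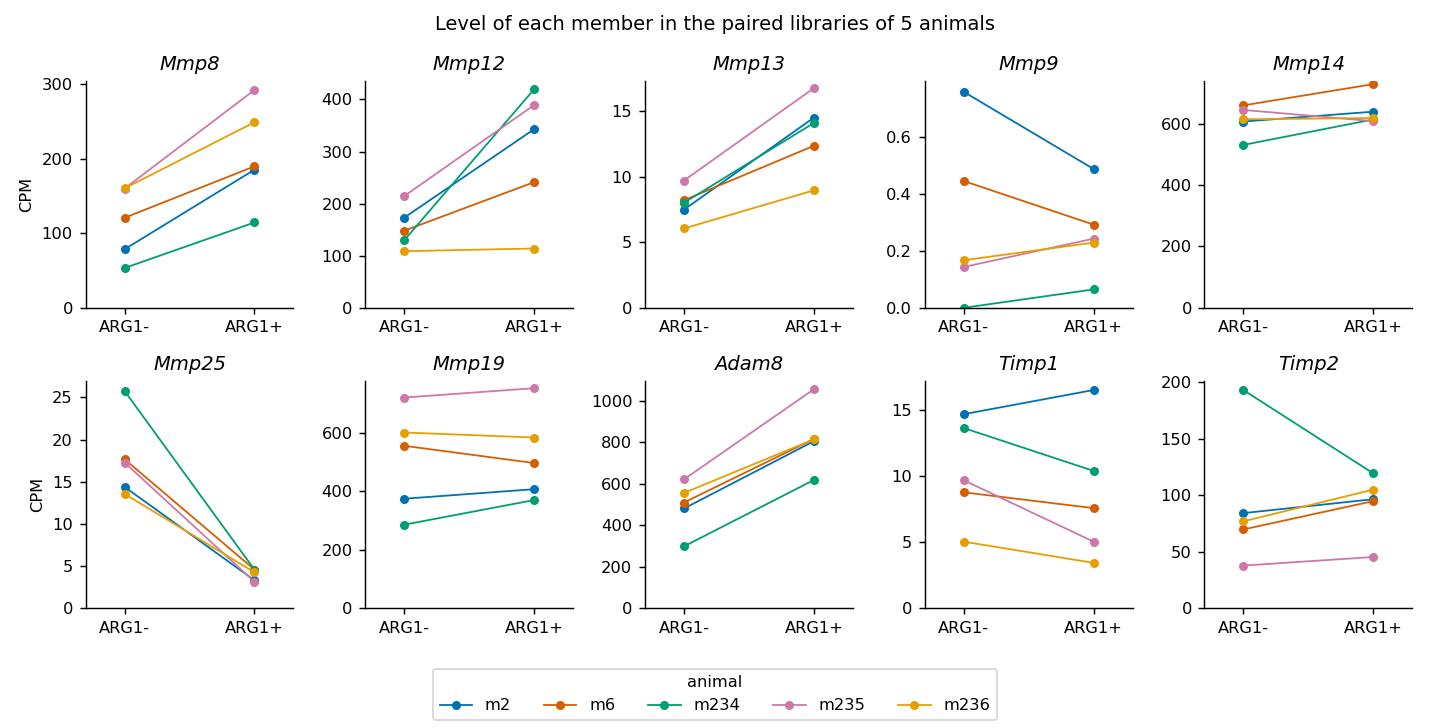
Level of each of the 10 members in CPM (y axis, linear from 0, own scale per panel) in the ARG1- and ARG1+ library of each animal, with a line for each of 5 animals. All 5 lines rise for Mmp8, Mmp12, Mmp13 and Adam8 and fall for Mmp25, where the ARG1+ libraries sit between 3.12 and 4.57 CPM and the ARG1- libraries between 13.6 and 25.8 CPM.

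*Mmp25* encodes a membrane-type MMP held at the cell surface by a lipid anchor and best known from neutrophils. In ARG1+ cells it was at 3.30 CPM in m2, 4.57 in m6, 4.55 in m234, 3.12 in m235 and 4.25 in m236. In ARG1- cells of the same animals it was at 14.4, 17.7, 25.8, 17.3 and 13.6 CPM. Every ARG1- library was thus above every ARG1+ library, and the depth was 95 to 141 counts per ARG1+ library and 219 to 636 per ARG1- library. The log2 fold change was -2.14 (SE 0.182, edgeR FDR = 0.000102). Of all tested genes, 0.211% had a lower log2 fold change. The fall was steepest in m234, where the ARG1+ level was 0.177 times the ARG1- level, and least in m236, where it was 0.313 times. Without the ARG1- library of m234 the log2 fold change was -1.99 (edgeR FDR = 4.04e-05).

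Marker lists of other cells were read beside *Mmp25*. Of 10 tested dendritic cell markers, 6 were lower in ARG1+ cells at the FDR limit and 9 with the animal as a block. Among them *Flt3*, the receptor for the growth factor of dendritic cells, was at 0.289 ± 0.141 in the ARG1+ and 3.63 ± 1.47 CPM in the ARG1- libraries (mean ± SD, n = 5 each), and *Ccr7*, the chemokine receptor that guides cells to lymph nodes, at 1.07 ± 0.181 and 7.27 ± 3.27 CPM. The summed level of the 12 listed dendritic cell markers was 122 to 377 CPM in ARG1+ and 219 to 482 CPM in ARG1- libraries. Of this sum *Itgax* alone made up 199 ± 90.9 and 255 ± 69.3 CPM (SD, n = 5 each). The edgeR FDR of *Itgax* was 0.441 without and 0.00431 with the animal as a block. The dendritic cell sum was lower in ARG1+ cells in every animal, and the highest ARG1- sum without m234 was 396 CPM. Of 10 tested monocyte markers, 4 were lower, among them *Ccr2*, the chemokine receptor of inflammatory monocytes, with a log2 fold change of -1.12 (edgeR FDR = 0.00339), and 1, *Lyz2*, was higher, with 5 lower and 4 higher with the animal as a block. The monocyte markers summed to 22090 to 29040 CPM in ARG1+ and 14900 to 22572 CPM in ARG1- libraries, higher in ARG1+ cells in 5 of 5 animals and so opposite to *Mmp25*. Of 5 tested neutrophil markers, 1 was lower, *S100a9*, at 0.242 ± 0.101 CPM against 2.44 ± 2.53 CPM (SD, n = 5 each). With the animal as a block, 2 were lower and 1 was higher. The 14 listed neutrophil markers summed to 148 to 210 CPM in ARG1+ and 182 to 284 CPM in ARG1- libraries, of which *Csf3r* alone made up 145 ± 26.5 and 184 ± 45.0 CPM (SD, n = 5 each). The neutrophil sum was lower in ARG1+ than in ARG1- cells in every animal, and without m234 the highest ARG1- sum was 218 CPM. Of this list *Ly6g* had 14 and *Retnlg* 3 counts over all libraries. The part of these cells in the *Mmp25* difference was not tested. The genes with the profile most like *Mmp25* over the 10 libraries, by the root mean square difference of centred log2 CPM, were *Gm37347* (difference 0.227) and *Igfbp6* (difference 0.348), which lie on chromosomes 1 and 15 and had log2 fold changes of -1.85 and -1.92.

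The collagenase genes *Mmp13* and *Mmp8* and the elastase gene *Mmp12* of the chromosome 9 run were higher in ARG1+ cells in every animal. *Mmp13* encodes an interstitial collagenase and was the least abundant of them. Its level in ARG1+ cells was 14.5 CPM in m2, 12.3 in m6, 14.1 in m234, 16.7 in m235 and 8.95 in m236. In ARG1- cells it was 7.48, 8.20, 8.004, 9.69 and 6.04 CPM. The groups overlapped only through m236, whose ARG1+ level lay below the ARG1- level of m235. Its log2 fold change was 0.76 (SE 0.165, edgeR FDR = 0.0125), and with the animal as a block it was 0.74 (edgeR FDR = 0.000102). The call was lost when both libraries of m2 (edgeR FDR = 0.0773) or of m6 (edgeR FDR = 0.0568) were left out.

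*Mmp8* encodes the collagenase first described in neutrophils. Levels in ARG1+ cells were 185 CPM in m2, 190 in m6, 114 in m234, 292 in m235 and 249 in m236. The ARG1- libraries of these animals were at 78.4, 121, 53.3, 160 and 160 CPM. The spread between animals was wide, with a coefficient of variation of 32.9% in ARG1+ and 41.9% in ARG1- cells, and the groups overlapped, since ARG1+ m234 lay below 3 ARG1- libraries. Within animals the ratio of ARG1+ to ARG1- was 1.55 to 2.36. The log2 fold change of 0.84 (SE 0.303) had an edgeR FDR of 0.0878 without and 4.23e-05 with the animal as a block, where it was 0.89 (SE 0.0829). It also passed without the ARG1+ library of m234 (edgeR FDR = 0.0459) and without both libraries of m234 (edgeR FDR = 0.0398). Without the ARG1- library of m234 it was 0.67 (edgeR FDR = 0.119). Of the neutrophil markers, *S100a8* was higher in ARG1+ cells in 5 of 5 animals, at 24.0 ± 6.60 and 20.0 ± 6.87 CPM (SD, n = 5 each), with an edgeR FDR of 0.56 without and 0.0154 with the animal as a block, whereas *S100a9* and *Csf3r* were lower in 5 of 5. Their part in the *Mmp8* difference was not tested.

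*Mmp12* encodes macrophage elastase. In ARG1+ cells its level was 343 CPM in m2, 241 in m6, 420 in m234, 389 in m235 and 114 in m236. The ARG1- libraries were at 173, 148, 130, 215 and 109 CPM. The other 4 animals had an excess in ARG1+ cells by a ratio of 1.63 or more, whereas m236 had a ratio of 1.05 and the lowest level in both groups. The ratio was highest in m234, at 3.24. The log2 fold change of 0.96 (SE 0.299) had an edgeR FDR of 0.0543, and with the animal as a block it was 0.85 (SE 0.167, edgeR FDR = 0.00338). DESeq2 gave an FDR of 0.0391, and edgeR without the filter 0.0245. Without the ARG1- library of m234 the log2 fold change was 0.91 (edgeR FDR = 0.0912). Left out in turn, the ARG1+ library of m236 (log2 fold change 1.17, edgeR FDR = 0.00609), both libraries of m236 (1.06, edgeR FDR = 0.0129) or the ARG1- library of m235 (1.11, edgeR FDR = 0.0425) brought *Mmp12* past both limits.

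*Adam8* encodes a metalloproteinase-disintegrin of myeloid cells that sheds cell-surface proteins. It was at 806 CPM in m2, 816 in m6, 619 in m234, 1057 in m235 and 815 in m236 in ARG1+ cells. The ARG1- libraries were at 481, 510, 298, 622 and 556 CPM. The groups touched only where ARG1+ m234 lay just below ARG1- m235. The ratio within animals was 1.46 to 2.08, and the log2 fold change was 0.74 (SE 0.179, edgeR FDR = 0.0206). With the animal as a block it was 0.76 (SE 0.062, edgeR FDR = 1.92e-05). Without the ARG1- library of m234 it was 0.60 (edgeR FDR = 0.0153). The call was lost when both libraries of m2 (edgeR FDR = 0.0909), m6 (edgeR FDR = 0.0875) or m236 (edgeR FDR = 0.0592) were left out.

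Among these 4 genes and *Mmp25*, the ARG1+ to ARG1- ratio departed least from 1 in the same animal, m236. The *Arg1* ratio of m236 was 41.1, within the range of 38.9 to 50.5 over the animals. The plot of log2 fold changes shows how the animals compare with both fits.

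**Figure D2:**
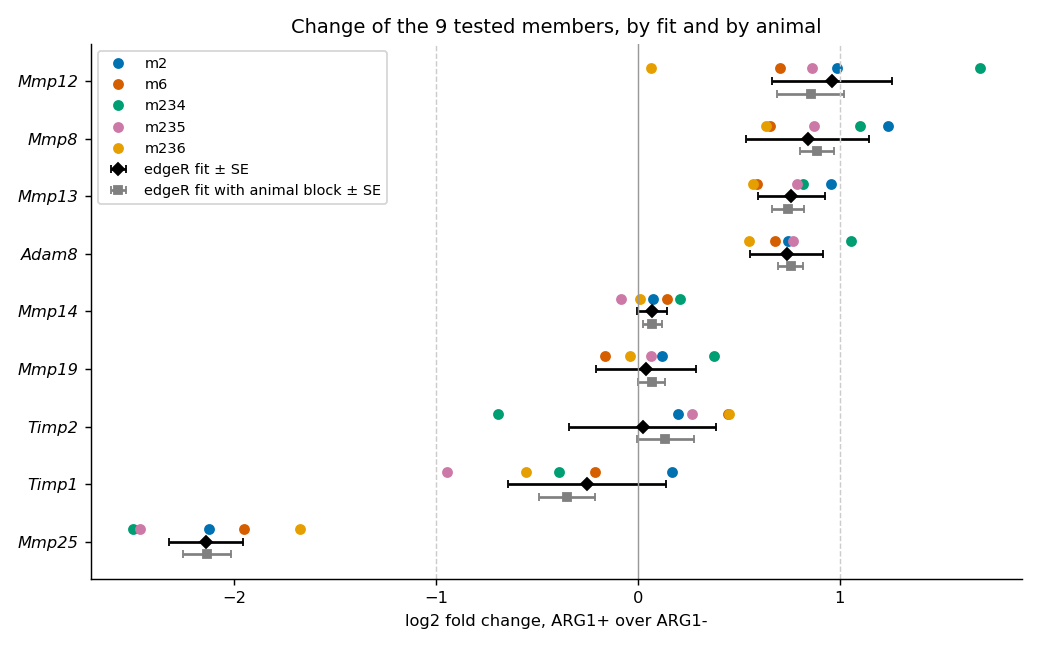
Log2 fold change of ARG1+ over ARG1- cells (x axis) of the 9 tested members, with a coloured point for each of 5 animals, a diamond for the edgeR fit and a grey square for the fit with the animal as a block, both ± SE. Dashed lines mark the limits of -1 and 1, which Mmp25 alone passes at -2.14, while Mmp8, Mmp12, Mmp13 and Adam8 lie between 0.74 and 0.96.

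*Mmp14* encodes a membrane-type MMP that activates the gelatinase MMP2 with the help of TIMP2. It was at 641 ± 50.1 in the ARG1+ and 611 ± 49.9 CPM in the ARG1- libraries (mean ± SD, n = 5 each), the smallest relative spread of all members, with coefficients of variation of 7.82% and 8.16%. The ranges of the groups overlapped in part, from 608 to 729 CPM in ARG1+ and from 530 to 659 CPM in ARG1- cells. The log2 fold change of 0.07 (SE 0.074, edgeR FDR = 0.565) did not pass, also with the animal as a block (edgeR FDR = 0.271).

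*Mmp19* encodes a secreted MMP that acts on basement membrane proteins. It was at 522 ± 153 in the ARG1+ and 507 ± 176 CPM in the ARG1- libraries (mean ± SD, n = 5 each). The animals differed far more than the groups. The level was 753 and 721 CPM in m235 and 370 and 286 CPM in m234, in ARG1+ and ARG1- cells respectively. Its log2 fold change was 0.04 (SE 0.249, edgeR FDR = 0.938), with 3 of 5 animals higher in ARG1+ cells. Its sign changed in 5 of 15 fits that left out a library or an animal, and the count is uncertain because of the exons shared with *Tmem198b*.

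*Mmp9* encodes a gelatinase of neutrophils and activated macrophages that is widely studied in EAE. It had 40 counts over the ARG1+ and 49 counts over the ARG1- libraries, with at most 24 counts in a library and 0 in ARG1- m234. A count of 0 allows up to 3 counts by counting error. At 0.263 ± 0.151 in the ARG1+ and 0.302 ± 0.301 CPM in the ARG1- libraries (mean ± SD, n = 5 each) it was under the filter, and a difference was not detectable at this depth.

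The inhibitors did not pass the test. *Timp1*, which encodes an inducible inhibitor of most secreted MMPs, was at 16.5 CPM in m2, 7.58 in m6, 10.4 in m234, 5.03 in m235 and 3.43 in m236 in ARG1+ cells. In ARG1- cells it was at 14.7, 8.78, 13.7, 9.69 and 5.04 CPM. The level was lower in ARG1+ cells in 4 of 5 animals, with m2 the exception, and the coefficient of variation in ARG1+ cells was 60.1%. On the log2 scale the change was -0.25 (SE 0.39, edgeR FDR = 0.704), and with the animal as a block -0.35 (SE 0.14, edgeR FDR = 0.0778).

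*Timp2* encodes the inhibitor that also takes part in MMP2 activation and is known to be expressed by microglia. Its level in ARG1+ cells was 96.5 CPM in m2, 94.8 in m6, 119 in m234, 45.3 in m235 and 105 in m236. In ARG1- cells it was 84.1, 69.7, 193, 37.7 and 76.9 CPM. In 4 of 5 animals it was higher in ARG1+ cells by a ratio of 1.15 to 1.37, whereas in m234 the ratio was 0.617. In the fit the log2 fold change was 0.02 (SE 0.365, edgeR FDR = 0.977), and without the ARG1- library of m234 it was 0.46 (SE 0.271, edgeR FDR = 0.285). The sign changed, to -0.021, with total counts as the scale. It also changed in 9 of 15 fits that left out a library or an animal. The summed microglia markers were highest in that ARG1- library of m234, at 2750 CPM against 1074 CPM in the ARG1+ library of the same animal. All 10 microglia markers were tested, 1 was lower in ARG1+ cells at the FDR limit and 8 with the animal as a block, and their part in the *Timp2* values was not tested.

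To compare levels between genes, CPM were divided by the exon length of each gene in kilobases (RPKM, CPM per kilobase). On this scale the order in ARG1+ cells was *Adam8* (177 ± 33.5), *Mmp19* (148 ± 43.4), *Mmp14* (108 ± 8.41), *Mmp8* (85.0 ± 27.9), *Mmp12* (41.7 ± 17.2), *Timp2* (23.6 ± 7.17), *Timp1* (9.68 ± 5.82), *Mmp13* (4.98 ± 1.09), *Mmp25* (0.746 ± 0.131) and *Mmp9* (0.0742 ± 0.0428), each as mean ± SD of 5 libraries. Ranges of neighbours overlapped down to *Mmp13*, and *Mmp13*, *Mmp25* and *Mmp9* were apart from each other. In ARG1- cells *Mmp19* (144 ± 49.7) was first, ahead of *Adam8* (106 ± 26.2) and *Mmp14* (103 ± 8.37), *Timp2* (23.7 ± 15.2) came before *Mmp12* (21.4 ± 5.65) with overlapping ranges, and *Mmp25* (3.34 ± 0.912) stood beside *Mmp13* (2.95 ± 0.493) with overlapping ranges. With the length of the longest transcript instead, *Mmp14* came before *Mmp19* in both groups, at 198 and 153 RPKM in ARG1+ and 189 and 149 RPKM in ARG1- cells. In ARG1- cells this put *Mmp14* first and *Adam8* (134 RPKM) after *Mmp19*, and *Mmp12* (34.6 RPKM) before *Timp2* (24.9 RPKM).

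The summed level of the 7 MMP genes was 388 ± 66.8 RPKM in ARG1+ and 321 ± 77.6 RPKM in ARG1- cells (SD, n = 5 each), and it was higher in ARG1+ cells in 5 of 5 animals. *Mmp19* made up 37.5% ± 4.92 of it in ARG1+ and 43.7% ± 5.25 in ARG1- cells, a smaller share in ARG1+ cells in all 5 animals. The share of *Mmp8* was 21.5% ± 4.35 in ARG1+ and 14.2% ± 3.24 in ARG1- cells, larger in all 5 animals, and that of *Mmp12* was 11.1% ± 5.28 and 6.88% ± 1.87, larger in 4 animals. *Mmp14* held 28.4% ± 4.96 and 33.1% ± 6.17, and *Mmp25* made up 0.199% ± 0.0563 in ARG1+ and 1.14% ± 0.623 in ARG1- cells (each mean ± SD of 5 libraries). Without m234 the *Mmp25* share of the ARG1- libraries was 0.868% ± 0.141 (SD, n = 4). With the longest transcript as length, *Mmp14* had the largest mean share, at 39.4% in ARG1+ and 45.3% in ARG1- cells, and *Mmp19* followed with 29.7% and 34.1%. With either length, the shares of *Mmp8* and *Mmp12* were larger in ARG1+ cells in 5 and 4 animals. Those of *Mmp19* and *Mmp25* were larger in 0 animals with either length. These shares carry no test, and they are seen in the plot of shares by library.

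**Figure D3:**
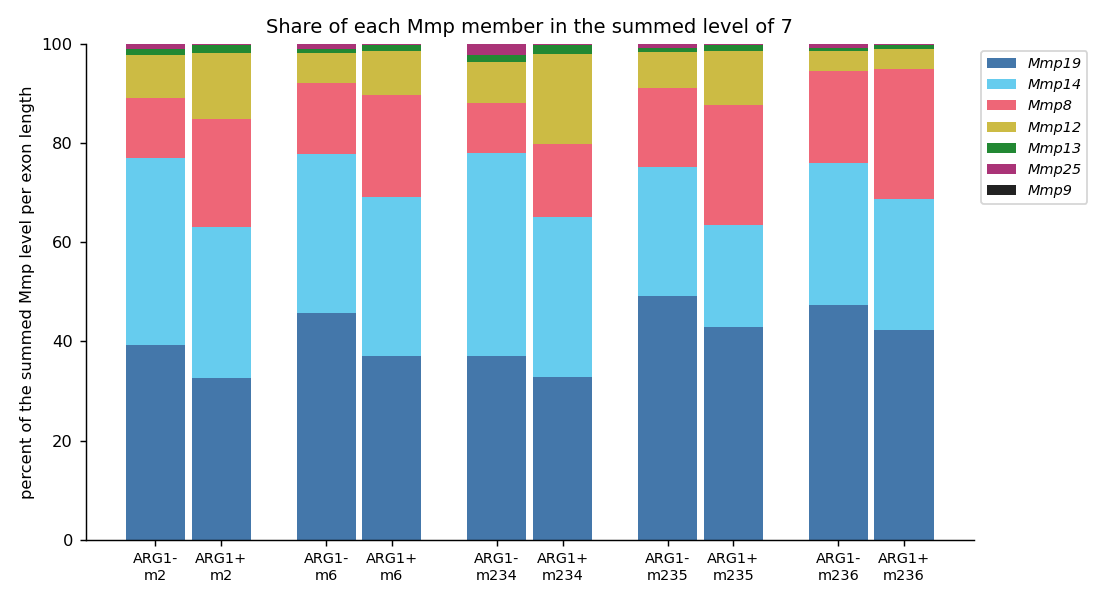
Share of each of the 7 Mmp members in their summed level per exon length (y axis, percent, 0 to 100) in the ARG1- and ARG1+ library of each animal, as stacked bars. Mmp19 and Mmp14 form the lower part of every bar, and the Mmp8 share is larger in the ARG1+ bar of each animal.

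The ratios of MMP to TIMP RNA differed more between animals than between the groups, and they carry no test. The summed MMP level includes *Mmp19*, whose count is uncertain because of its shared exons. The summed MMP level over the summed TIMP level was 13.7 ± 8.66 in ARG1+ and 11.4 ± 6.49 in ARG1- cells (SD, n = 5 each), higher in ARG1+ cells in 3 of 5 animals. It reached 28.7 in ARG1+ and 20.1 in ARG1- cells of m235, the animal with the lowest *Timp2*. Without m234, which had the lowest ratio of 3.35, the ARG1- mean was 13.4 ± 5.39 (SD, n = 4). *Mmp14* over *Timp2* was 5.07 ± 2.16 in ARG1+ and 5.82 ± 3.42 in ARG1- cells (SD, n = 5 each), and was higher in ARG1+ cells only in m234. Without m234 the ARG1- mean was 6.83 ± 2.97 (SD, n = 4), and with the longest transcript as length the means were 8.88 and 10.2. *Mmp9* over *Timp1* was at most 0.0167 in any library.

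The other genes of this system were read from 8 lists of related genes. Of 16 other MMP genes, 2 were tested. *Mmp27*, the next gene after *Mmp8* in the chromosome 9 run, was at 3.15 ± 0.919 in the ARG1+ and 1.14 ± 0.127 CPM in the ARG1- libraries (mean ± SD, n = 5 each), with no overlap of the groups and a log2 fold change of 1.45 (SE 0.212, edgeR FDR = 0.00152). *Mmp2*, the gelatinase that MMP14 activates, was higher in ARG1+ cells in 5 of 5 animals, with a log2 fold change of 0.48 (SE 0.366) and an edgeR FDR of 0.403 without and 0.00384 with the animal as a block. In the chromosome 9 run, *Mmp1a*, *Mmp1b* and *Mmp20* had 0 counts, and *Mmp3*, *Mmp7* and *Mmp10* had 2, 1 and 18 counts over all libraries. The 4 other inhibitors, *Timp3*, *Timp4*, *Reck* and *A2m*, had 87, 7, 47 and 39 counts in all and were under the filter.

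Of 19 other ADAM and ADAMTS proteases and their trafficking partners, 10 were tested, of which 0 were higher and 2 were lower at the FDR limit of edgeR, with 1 and 5 once the animal was a block. DESeq2 gave 0 higher and 2 lower, and at an unadjusted p under 0.05 by edgeR 0 were higher and 4 lower. *Adamts1*, a secreted protease that cuts proteoglycans, was at 4.92 ± 2.24 in the ARG1+ and 25.8 ± 28.7 CPM in the ARG1- libraries (mean ± SD, n = 5 each), and its log2 fold change was -2.31 (SE 0.681, edgeR FDR = 0.0441). Without the ARG1- library of m234 it was -1.47 (edgeR FDR = 0.0772). *Rhbdf2*, which escorts the sheddase ADAM17 to the cell surface, had a log2 fold change of -0.30 (SE 0.072, edgeR FDR = 0.0198). *Adam17*, the most highly counted of the list, was at 353 ± 21.2 and 359 ± 17.4 CPM (SD, n = 5 each) and did not pass (edgeR FDR = 0.811). *Rhbdf2*, and *Plau*, *Thbd*, *Lrp1*, *Sdc1*, *Lamc1*, *Dag1*, *Fos* and *Jund* below, were named after their values were seen.

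The plasminogen system, whose protease plasmin activates several pro-MMPs, had 11 of 12 genes tested, 1 higher and 1 lower. *Plau*, which encodes the activator urokinase, fell with a log2 fold change of -0.63 (SE 0.135, edgeR FDR = 0.0112), from 129 ± 25.1 CPM in ARG1- to 83.2 ± 13.6 CPM in ARG1+ cells (SD, n = 5 each). *Thbd*, which encodes thrombomodulin, rose by 0.74 on the log2 scale (SE 0.18, edgeR FDR = 0.0204). The receptor gene *Plaur*, with the highest CPM of the list, was at 682 ± 52.2 and 653 ± 61.3 CPM (SD, n = 5 each) and did not pass (edgeR FDR = 0.64), nor did *Serpine2*, with a log2 fold change of -1.02 (SE 0.653, edgeR FDR = 0.318) that was 0.080 without the ARG1- library of m234.

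Of the partners that activate, dock or clear these enzymes, 10 of 12 were tested, 2 higher and 1 lower. *Lcn2*, which encodes a lipocalin that binds MMP9, fell from 5.28 ± 1.96 CPM in ARG1- to 1.93 ± 0.79 CPM in ARG1+ cells (SD, n = 5 each), and its log2 fold change was -1.48 (SE 0.316, edgeR FDR = 0.0114). *Lrp1*, a scavenger receptor that takes up MMPs and TIMPs, rose by 0.45 on the log2 scale (SE 0.086, edgeR FDR = 0.00645), and *Sdc1*, the proteoglycan syndecan, by 0.70 (SE 0.111, edgeR FDR = 0.00239). *Tgfbi*, a matrix protein gene with the highest CPM of this list, was at 4527 ± 534 and 4747 ± 631 CPM (SD, n = 5 each) and did not pass (edgeR FDR = 0.714).

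Of 18 matrix and basement membrane substrates, 8 were tested, 2 higher and 1 lower. *Lamc1*, a laminin chain, rose by 0.49 on the log2 scale (SE 0.095, edgeR FDR = 0.0066), and *Dag1*, which encodes dystroglycan, by 0.21 (SE 0.059, edgeR FDR = 0.0381), although *Dag1* did not pass without the ARG1- library of m234 (edgeR FDR = 0.054). *Vcan*, the proteoglycan versican and also a monocyte marker of the lists, fell from 52.2 ± 12.3 CPM in ARG1- to 26.1 ± 10.2 CPM in ARG1+ cells (SD, n = 5 each), and its log2 fold change was -1.005, just past the limit (SE 0.247, edgeR FDR = 0.0214). *Fn1*, fibronectin, had the highest CPM, at 9214 ± 1884 and 6693 ± 1360 CPM (SD, n = 5 each), with an edgeR FDR of 0.0776 without and 0.000793 with the animal as a block. *Sparc* had the largest change of the list, at -1.76 (SE 0.621, edgeR FDR = 0.0818), with an FDR of 0.0227 with the animal as a block and a log2 fold change of -0.70 without the ARG1- library of m234.

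All 10 AP-1 genes were tested, 2 higher and 2 lower. *Fosb*, the most highly counted, and *Fos* rose by 0.33 (SE 0.083, edgeR FDR = 0.024) and 0.38 (SE 0.087, edgeR FDR = 0.016) on the log2 scale. *Jund* fell by 0.32 (SE 0.066, edgeR FDR = 0.00911) and *Batf3*, which is also a dendritic cell marker of the lists, fell by 0.93 (SE 0.249, edgeR FDR = 0.0302). Of 13 enzymes that crosslink or modify matrix, 8 were tested and 0 passed in either direction by edgeR, with 2 higher and 1 lower at an unadjusted p under 0.05, 1 and 1 by DESeq2, and 3 and 1 once the animal was a block. *Tgm2*, the transglutaminase gene with the highest CPM of that list, was at 1648 ± 117 and 1727 ± 154 CPM (SD, n = 5 each), and *P4ha2*, a collagen prolyl hydroxylase gene with the largest change, had a log2 fold change of 0.50 (SE 0.181, edgeR FDR = 0.0876).

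**Figure D4:**
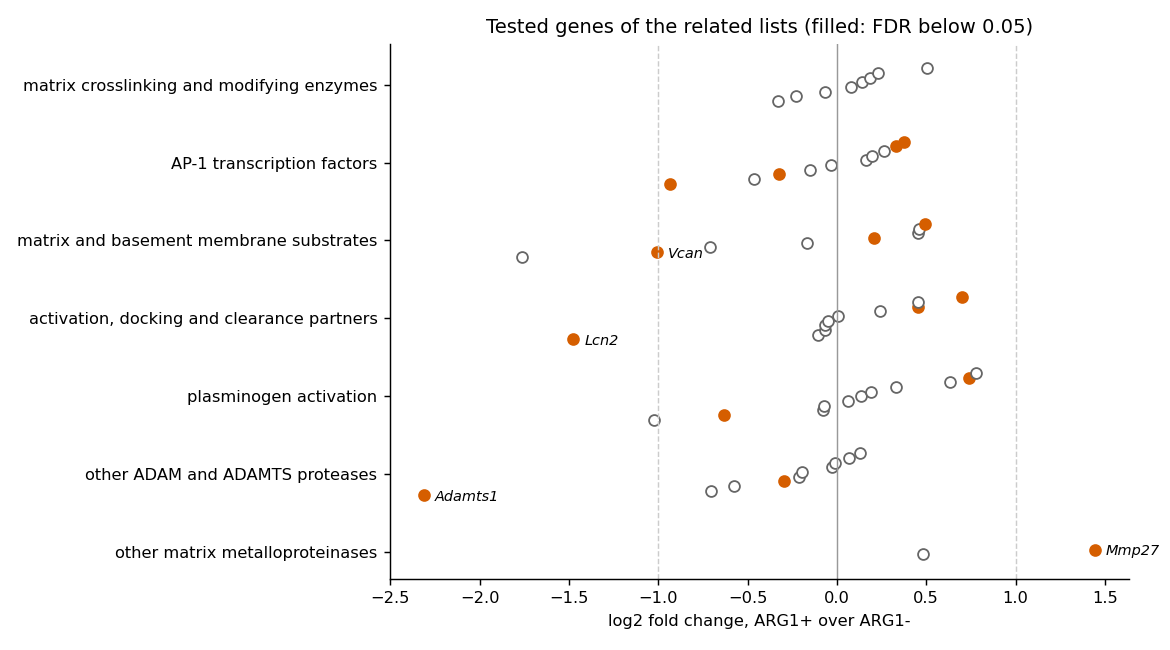
Log2 fold change of ARG1+ over ARG1- cells (x axis) for the tested genes of 7 related lists (rows), as points that are filled at an FDR below 0.05, with dashed lines at -1 and 1. Mmp27 at 1.45 is the only filled point right of 1, and Adamts1, Lcn2 and Vcan are the filled points at or left of -1.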

How the data were processed

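The authors made strand-marking libraries and sequenced 50 bases from 1 end of each fragment. They used Picard, aligned reads to GRCm38 (mm10) with STAR 2.7.10b per the labels, and counted on basic Ensembl annotation with summarizeOverlaps in Union mode without secondary alignments, summing transcripts to genes. The deposited values are raw counts per gene. No column was left unused (0 of the count columns). Use of the strand in counting is not stated in the sources used.

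Groups came from the sample titles. Counts of genes above 1 CPM in at least 3 libraries, the authors' filter, were tested with edgeR 4.0.16 in R 4.3.3 (quasi-likelihood, TMM, no block) at a Benjamini-Hochberg FDR below 0.05, with and without an absolute log2 fold change above 1. SE is the log2 fold change divided by the square root of F. CPM use TMM library sizes. RPKM divide CPM by GENCODE exon union length of the same build. Alternatives were an animal block, DESeq2 1.42.0, limma-trend of limma 3.58.1 (prior counts 2 and 0.5), other scales and filters, and leaving out libraries or animals. The fits were tested on simulated data drawn without an animal effect, so that check does not bear on the pairing of libraries.

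Libraries of an animal come from the same mouse. Their residuals from the group means correlated at 0.397 to 0.691 across genes, against -0.399 to 0.0786 between animals. Taking residuals from the group means in itself pushes the values between animals down, so these are not an independent baseline. Genes are not independent replicates. Chi-square per degree of freedom between libraries of a group was 14.2 to 57.1, so no library was a repeat of another. One CPM is 8.40 counts in the smallest library and 28.2 to 35.5 counts in the others. The limit given for a count of 0 covers counting error only.

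Members and lists were chosen with earlier results of these data known. Besides the members, the text names the most abundant and most changed tested gene of each related list and every gene past both limits, *Arg1*, markers beside a result, the 2 genes most like a member past both limits, and genes that share exons with a member. Marker lists of 11 cell types were read. Some results on listed genes are not reported here.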

Additional observations from a re-analysis of the deposited data

Results flagged for a closer look

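The *Mmp14* level of the ARG1+ library of m6 was 729 CPM, apart from the next highest ARG1+ library at 639 CPM. The gap was 0.744 of the range of the 5 ARG1+ libraries, above Dixon's critical value of 0.71 for 5 samples. It was 1 of 20 groups of libraries checked over the members, and chance alone flags about 1 in 20. The *Mmp14* log2 fold change stayed between 0.02 and 0.11 in all 15 fits that left out a library or an animal, and the FDR of edgeR was at least 0.434 in each.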

How the results depend on the processing

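The fold changes of the 9 tested members had 207 values under the alternatives. Of these, 192 had the reported direction, and the 15 reversed ones were those of *Mmp19* and *Timp2*, whose log2 fold changes were near 0. *Timp2* was at -0.021 with total counts as the scale. With each library or animal left out, *Mmp19* ranged from -0.13 to 0.20 and *Timp2* from -0.17 to 0.46, and *Mmp25* ranged from -2.25 to -1.99 and passed both limits in 15 of 15 fits. The count of members higher at both limits was 0, and it was 2 with no fold change limit and 0 to 1 with libraries or animals left out. At the FDR limit alone the count was 2, with 4 in the fit with the replicate block and 0 to 3 with libraries or animals left out. The count of lower members was 1 under every alternative run. Apart from the calls of *Mmp8*, *Mmp12*, *Mmp2*, *Fn1*, *Sparc* and *P4ha2*, which the block gained, it changed no call of a named gene of the members and related lists. Of 552 values of the other named genes of the related lists, 548 had the reported direction. The reversed ones came from leaving out libraries or animals, with *Adam17* between -0.058 and 0.011 and *Serpine2* between -1.34 and 0.080. The weakest calls in these 15 fits were *Adamts1* (passed in 3), *Dag1* (in 4), *Batf3* (in 7), *Fosb* and *Vcan* (each in 10). *Adamts1* also did not pass by limma-trend (FDR = 0.0858 at a prior count of 2), and *Dag1* did not with total counts (edgeR FDR = 0.0878) or without the filter (edgeR FDR = 0.0811). Ratios and shares without the ARG1- library of m234 were added after seeing the data. The cause of these changes was not tested. Fits without an animal had 4 libraries a group. Depth limited *Mmp9*, with 89 counts in all, and the ARG1- library of m234.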

Other observations

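Markers of border-associated macrophages, the resident macrophages of vessels and meninges, were higher in ARG1+ cells. Of 8 listed genes 4 were tested, and all 4 rose at the FDR limit of edgeR. *Pf4*, which encodes platelet factor 4, was at 17.3 ± 6.18 in the ARG1+ and 4.47 ± 2.31 CPM in the ARG1- libraries (mean ± SD, n = 5 each), and its log2 fold change was 1.88 (SE 0.315, edgeR FDR = 0.00324). *Mrc1*, the mannose receptor, had a log2 fold change of 1.16 (SE 0.315, edgeR FDR = 0.032), *Stab1*, a scavenger receptor, of 0.62 (SE 0.094, edgeR FDR = 0.00195) and *Ms4a7* of 0.50 (SE 0.106, edgeR FDR = 0.0103). *Cd163* and *Lyve1*, which define subsets of these cells, had 7 and 23 counts over all libraries. The summed level of the list was 880 to 1190 CPM in ARG1+ and 565 to 711 CPM in ARG1- libraries. Of this sum *Stab1* alone made up 841 ± 108 and 548 ± 49.9 CPM (SD, n = 5 each). The part of these markers in the MMP values was not tested.

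Genes of B and plasma cells were lower in ARG1+ cells for 2 of 3 tested markers. *Ighm*, the heavy chain of immunoglobulin M, was at 6.97 ± 2.32 in the ARG1+ and 26.5 ± 10.9 CPM in the ARG1- libraries (mean ± SD, n = 5 each), while *Ms4a1*, which defines B cells, had 9 counts over all libraries. Of 4 tested endothelial markers 2 were lower, *Kdr* with a log2 fold change of -0.82 (SE 0.2, edgeR FDR = 0.0204) and *Flt1* of -0.47 (SE 0.132, edgeR FDR = 0.037). The other tested ones, *Pecam1* (log2 fold change -0.014, edgeR FDR = 0.983) and *Cdh5* (-0.113, edgeR FDR = 0.887), did not pass. *Cldn5* and *Tek*, with 179 and 42 counts over all libraries, were under the filter. By edgeR 0 of 2 tested T cell markers, 0 of 4 astrocyte markers and 0 of 5 oligodendrocyte markers passed, while 0, 1 and 2 did at an unadjusted p under 0.05, and 0, 1 and 2 by DESeq2. None of the 7 fibroblast markers was above the filter.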
